A study of Mus musculus with 6 samples.

Results

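The genes described here are 42 markers and regulators of spermatogonial stem cells and of undifferentiated spermatogonia, taken from a list of gene symbols and read from a deposited count table of 32285 mouse genes. All 42 were found by Ensembl identifier, Gpr125 under its present symbol Adgra3. Of these, 40 had enough counts to be tested and Id2 and Tspan8 did not. The RNA came from germline stem cells, the cultured counterpart of spermatogonial stem cells, of 1 wild-type line called DBA-GFP. The 3 control libraries were from cells in complete medium and the 3 other libraries from cells in a medium named for 8 mM pyruvate. A glucose medium of the same study was not analysed here. The labels name no agent, allele or age beyond this, and they do not say that libraries came from separate cultures.

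Spermatogonial stem cells are kept undifferentiated by GDNF, which binds the co-receptor GFRA1 and signals through the receptor tyrosine kinase RET, together with fibroblast growth factor. These signals raise a group of transcription factors, among them Etv5, Bcl6b and Lhx1, that favour self-renewal. Cells on the way to differentiation lose Gfra1 and gain Neurog3, Sox3 and Upp1, and answer to retinoic acid through RARG, before they turn on Kit and Stra8.

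RefSeq promoters were at hand for 27 of the 42 genes. Those of 4 genes are shown, the 250 bases before the annotated start on GRCm38.p6, 5′ to 3′ on the gene's strand, for members whose 2 groups of libraries did not overlap, Neurog3 and Nanos3 with every pyruvate library above the controls and Cxcr4 and Lhx1 with every pyruvate library below. They were picked by hand after the values were seen. The windows are chr10:62132840-62133089 on the plus strand for Neurog3 and, on the minus strand, chr8:84176553-84176802 for Nanos3, chr1:128592300-128592549 for Cxcr4 and chr11:84525535-84525784 for Lhx1. The Nanos3 window lies inside the gene's full span in GENCODE, which has a start further upstream.
Neurog3: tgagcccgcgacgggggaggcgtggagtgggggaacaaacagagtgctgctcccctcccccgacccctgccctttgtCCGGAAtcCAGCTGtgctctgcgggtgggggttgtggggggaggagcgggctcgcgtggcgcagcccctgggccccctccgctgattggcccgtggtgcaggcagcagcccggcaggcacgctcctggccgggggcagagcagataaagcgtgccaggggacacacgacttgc
Nanos3: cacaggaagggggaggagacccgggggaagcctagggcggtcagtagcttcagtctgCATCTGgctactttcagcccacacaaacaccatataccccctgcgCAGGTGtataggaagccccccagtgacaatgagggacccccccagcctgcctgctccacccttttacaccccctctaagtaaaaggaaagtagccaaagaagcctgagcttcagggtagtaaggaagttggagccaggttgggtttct
Cxcr4: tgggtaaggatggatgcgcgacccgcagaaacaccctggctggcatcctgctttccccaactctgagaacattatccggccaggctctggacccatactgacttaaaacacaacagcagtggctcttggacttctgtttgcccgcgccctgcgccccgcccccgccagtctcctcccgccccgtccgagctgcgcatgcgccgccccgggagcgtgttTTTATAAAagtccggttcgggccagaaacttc
Lhx1: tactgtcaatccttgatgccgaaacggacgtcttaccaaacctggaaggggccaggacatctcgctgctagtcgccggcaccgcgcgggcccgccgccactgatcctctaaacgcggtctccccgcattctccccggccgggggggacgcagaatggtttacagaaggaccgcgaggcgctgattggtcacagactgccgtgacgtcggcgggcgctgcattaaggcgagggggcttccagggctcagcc
Capitals mark matches on either strand to CANNTG, the E-box letters of basic helix-loop-helix factors, to CCGGAA, a core of ETS factor sites, and to TATAAA, the TATA box. Neurog3 held 1 E-box and 1 ETS core, Nanos3 held 2 E-boxes, and Cxcr4 held 2 overlapping TATA matches on opposite strands. Lhx1 held 0 matches to these letters in this window. Among all 32851 promoter windows of this length 66.2% held an E-box, 3952 windows an ETS core and 12.4% of windows a TATA box. These matches describe the letters and were not tested against the expression values.

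The members' levels spanned a wide range, as the plot of levels by gene shows. Levels between genes are given as TMM-normalized CPM (a gene's reads scaled to a common library size) per kilobase of summed exon, averaged over the 3 controls. Mcam, a cell adhesion molecule, stood highest at 232, followed by the tetraspanin gene Cd9 at 104, Bcl6b at 97.8, Ret at 94.8 and Epcam, an epithelial adhesion molecule, at 90.3. Mcam stood above every other member in every library. In the controls the ranges of Bcl6b and Ret overlapped, while the lowest Cd9 library was above the highest Bcl6b library. Gfra1 ranked eleventh at 63.5, Zbtb16 next at 57.6, Id4 stood at 8.13 and Nanos2 at 4.19. The lowest tested members were Eomes and Fgfr3, both at 1.37.

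**Figure D1:**
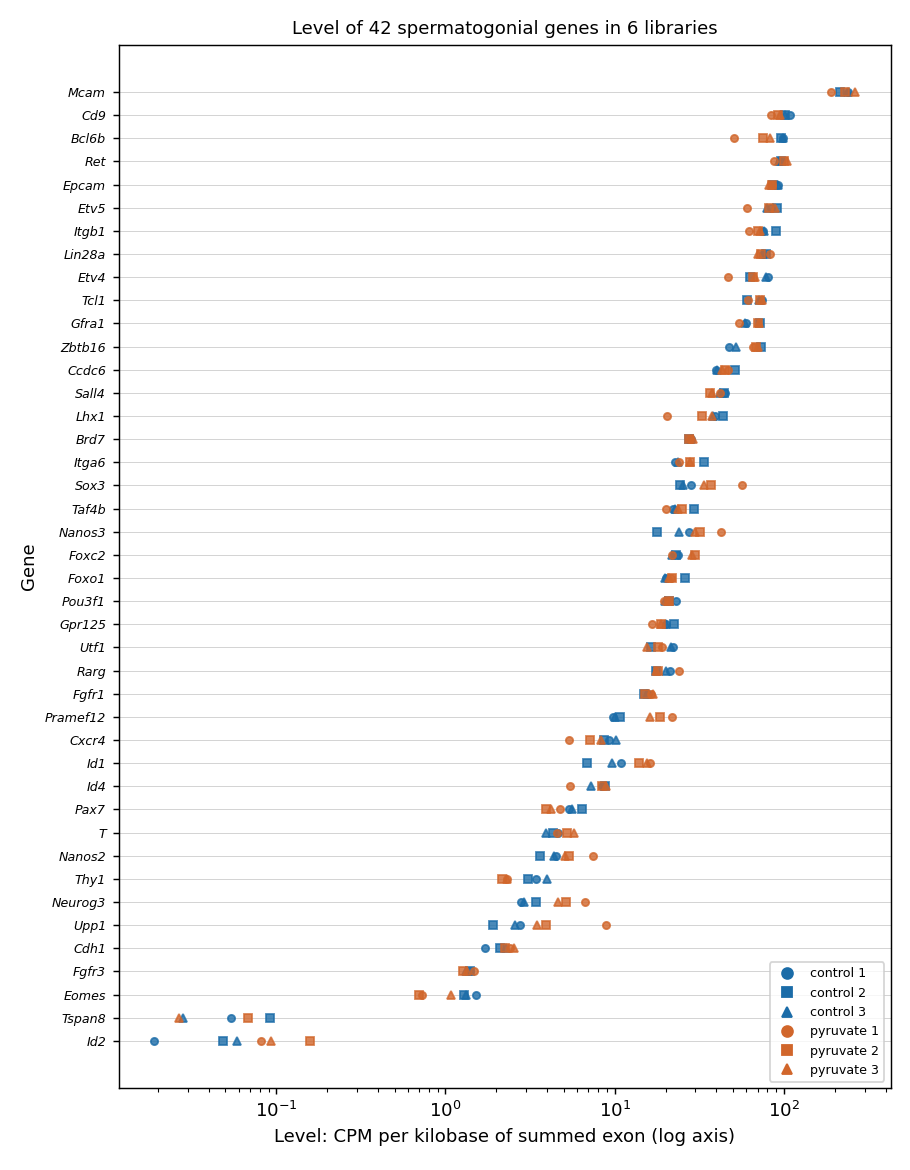
Level of each of the 42 genes in each library, in CPM per kilobase of summed exon on a log axis, ordered by the control mean; blue points are control libraries and orange points pyruvate libraries. Mcam lies at the top (232 in control), Id2 and Tspan8 at the bottom near the counting floor, and the library of Tspan8 with 0 counts cannot be drawn on a log axis.

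Id2 and Tspan8 were at or near the floor of 3 counts. Id2, an inhibitor of basic helix-loop-helix factors, had 1, 3 and 3 counts in the controls and 5, 10 and 5 in pyruvate medium. Tspan8, a tetraspanin used to sort stem cells from the testis, had 2, 4 and 1 counts and 0, 3 and 1 counts. No fold is given for either. Gdnf itself had 1 to 2 counts per library.

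Library totals were 20918312 to 26413080 counts, which puts the floor of 3 counts at 0.116 to 0.143 CPM, covering counting error only. Control replicate 2 lay at 36.5 on the first principal component of all tested genes (38.9% of variance), with the other libraries between -27.2 and 0.81. Pyruvate replicate 1 lay at the -27.2 end. On the second component (28.4%) control replicates 1 and 3 lay at -23.4 and -21.4. Control replicate 2 lay there at 7.33, beside 9.84, 15.1 and 12.5 for pyruvate replicates 1, 2 and 3. For the genes described here the library that most often stood apart was pyruvate replicate 1: it was the highest or the lowest of the 6 libraries for 25 of 40 members (62.5%, against 47.9% of all tested genes). Control replicate 2 was so for 18 members (45.0%, against 60.5% of all tested genes). Of 15 germ cell markers 14 were matched and tested, all but Gcna. Ddx4, an RNA helicase of germ cells, stood at 229, 296 and 236 CPM in the controls and at 249.6, 276 and 275 CPM in pyruvate medium, and the list's summed level was 2969 to 3649 CPM in control and 3058 to 3220 CPM in pyruvate medium. Ddx25, Tdrd1, Tex101 and Sycp1 had the lowest p of that list, with log2 fold changes of 0.24, 0.19, -0.26 and -0.62 and adjusted p of 0.219 to 0.411. Tdrd1 and Tex101 passed without control replicate 2, and Sycp1 stood at -0.15 there. Summed levels of other cell types' markers were low: 28.6 to 32.1 and 27.1 to 32.4 CPM for 10 Sertoli genes (Inha, Clu, Sox9 and Wt1 leading by p, Fshr at 0 counts), 2.91 to 4.05 and 2.64 to 2.86 CPM for 7 Leydig genes (Star alone tested, Hsd3b1, Insl3 and Lhcgr at 0), 34.7 to 36.1 and 28.4 to 36.9 CPM for 8 endothelial genes (Vwf, Cdh5, Pecam1 and Tek leading, Emcn at 0), and 5.66 to 8.88 and 6.27 to 8.85 CPM for 10 macrophage and immune genes (Cd14, Fcer1g and Cd68 tested, Adgre1 and C1qb at 0). In bulk RNA, fewer cells of a type and less RNA per cell cannot be told apart.

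The comparison of the 2 media asked whether expression of these genes differs between complete medium and pyruvate medium. No member passed the quasi-likelihood test of edgeR once p was adjusted (Benjamini-Hochberg) over 14912 tested genes (0 of 40 members, where 0.0536% of all genes passed). Limma-voom also called 0 members. DESeq2 called 6, of which 5 were higher (12.5%, against 1.22% of all genes) and 1 lower (2.5%, against 0.972%). At an unadjusted p under 0.05 there were 7 members above 0 (17.5%, against 7.94% of all genes) and 8 below 0 (20.0%, against 6.44%). The groups did not overlap for 7 members higher in pyruvate medium (17.5%, against 11.9%) and for 10 of 40 lower (against 10.6%). Because members and lists were chosen with earlier results of these data known, these shares and those given below are descriptions, not tests. Log2 fold changes, given throughout as pyruvate minus control, lay above 0 for 18 members and below 0 for 22, or 22 and 18 with library totals as the scaling. Their median was -0.014, beside -0.0100 over all tested genes, and the median of their sizes without sign was 0.20, beside 0.14.

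**Figure D2:**
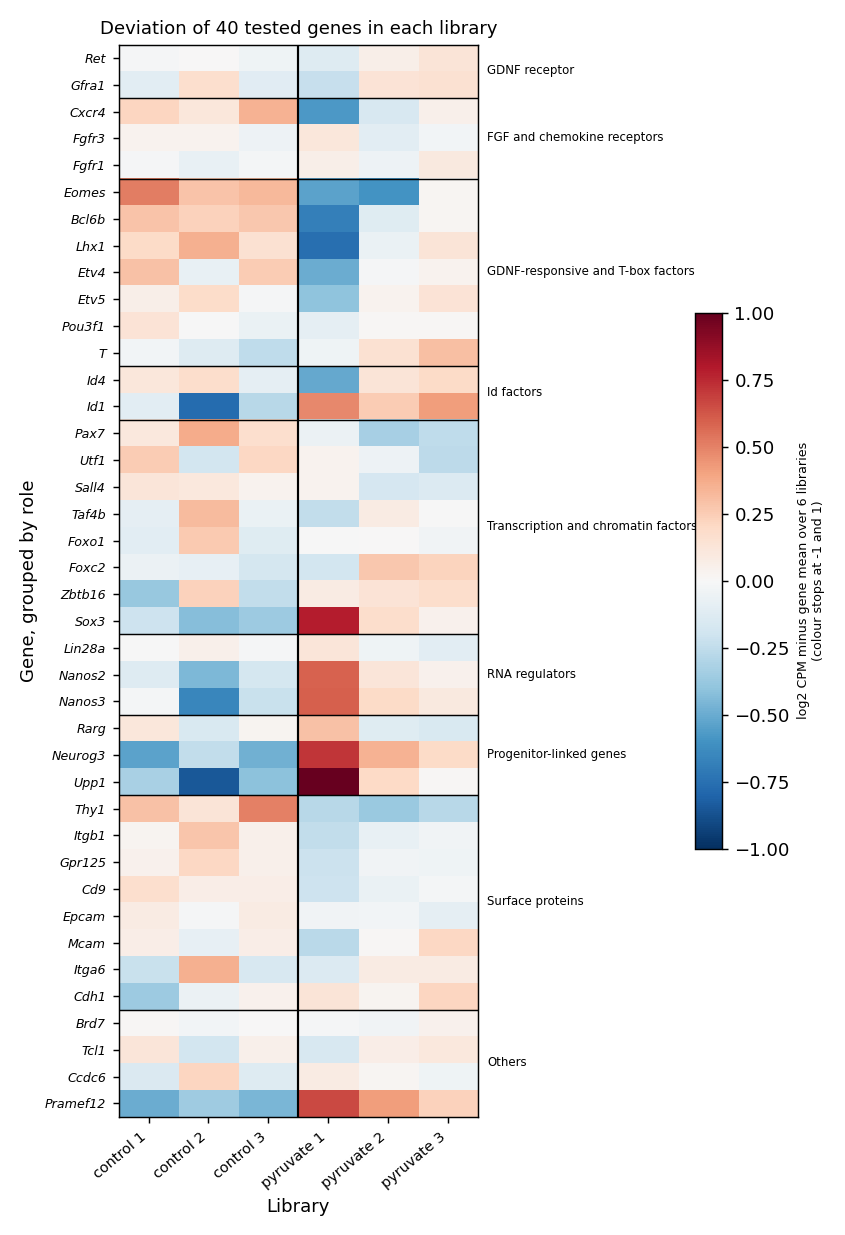
Log2 CPM of each of the 40 tested genes minus its mean over the 6 libraries (colour, red above and blue below), in rows grouped by role and columns by library. Pyruvate replicate 1 holds the strongest deviation from the gene mean for Upp1, Sox3, Lhx1, Neurog3 and Bcl6b, and control replicate 2 for Id1 and Nanos3; the colour stops at -1 and 1.

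Neither receptor subunit for GDNF passed the test, and both had overlapping groups. Coordinates are those of GRCm38. Gfra1 (ENSMUSG00000025089, chromosome 19, 58235604 to 58455909), the ligand-binding co-receptor, stood at 326, 394 and 324 CPM in control replicates 1, 2 and 3 and at 298, 385 and 389 CPM in pyruvate replicates 1, 2 and 3. The groups overlapped, with pyruvate replicate 1 the lowest and control replicate 2 the highest of the 6 libraries (log2 fold change 0.039, SE 0.12, adjusted p = 0.906). Ret (ENSMUSG00000030110, chromosome 6, 118151745 to 118197718), the signalling kinase, stood at 642, 649.5 and 631 CPM in the controls and at 594, 674 and 708 CPM in pyruvate medium, with the controls lying inside the range of the pyruvate libraries (log2 fold change 0.039, SE 0.082, adjusted p = 0.857). Exons of Gfra1 overlap an annotated gene on the opposite strand, and the strand setting of the counting is not given in the sources used here. The same holds for Fgfr1, Fgfr3, Eomes, Pou3f1, Id4, Sall4, Foxo1, Lin28a, Nanos2, Neurog3, Cd9, Mcam and Tspan8, which leaves their counts uncertain.

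Fgfr1 and Fgfr3, receptors for fibroblast growth factors, stood at log2 fold changes of 0.071 and -0.013, with adjusted p of 0.701 and 0.965. Their levels ran from 148 to 167 CPM and from 9.08 to 10.6 CPM over all libraries. Cxcr4 (ENSMUSG00000045382, chromosome 1, 128588199 to 128592293), the receptor for the chemokine CXCL12 and the gene of the third promoter shown above, stood at 16.8, 15.7 and 18.4 CPM in the controls and at 9.68, 13.0 and 15.0 CPM in pyruvate medium. Every pyruvate library lay below every control, the lowest being pyruvate replicate 1, and the difference did not pass the test (log2 fold change -0.43, SE 0.16, adjusted p = 0.278). The log2 fold change of Cxcr4 was -0.27 without pyruvate replicate 1.

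Of the 7 GDNF-responsive and T-box factors, 6 had log2 fold changes below 0 and 1, T, above, with a median of -0.30. At an unadjusted p under 0.05 were 2 of them below 0, Eomes and Bcl6b (28.6%, against 6.44% of all tested genes), and 0 passed over all genes. Bcl6b (ENSMUSG00000000317, chromosome 11, 70224128 to 70229798), a transcriptional repressor, stood at 369, 356 and 366 CPM in control replicates 1, 2 and 3 and at 189, 279 and 306 CPM in pyruvate replicates 1, 2 and 3. The controls lay close together and all pyruvate libraries lay below them, most of all replicate 1 (log2 fold change -0.50, SE 0.16, adjusted p = 0.225). Lhx1 (ENSMUSG00000018698, chromosome 11, 84518284 to 84525535), a LIM homeobox factor, stood at 159, 178 and 155 CPM in the controls and at 82.6, 133 and 152 CPM in pyruvate medium. The groups did not overlap, but pyruvate replicate 3 was within 3 CPM of control replicate 3 (log2 fold change -0.42, SE 0.20, adjusted p = 0.38). Etv4, an ETS factor, stood at 251, 195 and 244 CPM in the controls and at 146, 203 and 210.4 CPM in pyruvate medium, with control replicate 2 inside the pyruvate range (log2 fold change -0.30, SE 0.15, adjusted p = 0.41). Its close relative Etv5, the ETS factor required for stem cell maintenance, stood at 343, 375 and 328 CPM in the controls and at 249, 337 and 363 CPM in pyruvate medium. Only pyruvate replicate 1 was below the controls there (log2 fold change -0.14, SE 0.14, adjusted p = 0.678).

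Pyruvate replicate 1 was the lowest of the 6 libraries for Bcl6b, Lhx1, Etv4, Etv5 and Pou3f1. Pou3f1, a POU factor, stood at 88.3, 80.5 and 76.9 CPM in the controls and at 75.8, 81.2 and 81.2 CPM in pyruvate medium (log2 fold change -0.046, SE 0.084, adjusted p = 0.837). Spry4 and Dusp6, feedback genes of ERK signalling, were chosen after their values were seen and do not speak for the other feedback genes. Both were lowest in that library too. Spry4 stood at 92.5 CPM there, beside 156 and 166 in the other pyruvate libraries, and Dusp6 at 137, beside 248 and 254. Over the 50 tested genes of the GDNF and FGF signalling list the median log2 deviation from the gene mean was -0.14 in that library. It was 0.022 and 0.020 in pyruvate replicates 2 and 3, and 0.013, 0.12 and -0.052 in control replicates 1, 2 and 3. The part of pyruvate replicate 1 in the values of the GDNF-responsive and T-box factors was not tested beyond leaving it out. Without pyruvate replicate 1 the log2 fold changes were -0.31 for Bcl6b, -0.20 for Lhx1, -0.15 for Etv4 and 0.012 for Etv5. Eomes (ENSMUSG00000032446, chromosome 9, 118478212 to 118486132), a T-box factor of a subset of stem cells, stood at 6.25, 5.34 and 5.49 CPM in the controls and at 3.03, 2.91 and 4.46 CPM in pyruvate medium. All 3 pyruvate libraries lay below the controls, replicate 3 nearest to them (log2 fold change -0.72, SE 0.19, adjusted p = 0.167). T, the T-box factor brachyury, stood at 10.7, 9.94 and 9.12 CPM in the controls and at 10.6, 12.1 and 13.4 CPM in pyruvate medium, with replicate 1 of each medium side by side (log2 fold change 0.28, SE 0.13, adjusted p = 0.368).

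The Id factors, which lack a DNA-binding region and hold basic helix-loop-helix partners inactive, gave differing values. Id4 (ENSMUSG00000021379, chromosome 13, 48261228 to 48266026), a marker of the stem cell fraction, stood at 32.2, 33.7 and 28.0 CPM in the controls and at 20.9, 32.6 and 34.0 CPM in pyruvate medium. Pyruvate replicate 1 was low and the other pyruvate libraries lay among or above the controls (log2 fold change -0.10, SE 0.18, adjusted p = 0.826). Id1 (ENSMUSG00000042745, chromosome 2, 152736251 to 152737410) stood at 12.6, 7.97 and 11.2 CPM in control replicates 1, 2 and 3 and at 18.9, 16.1 and 18.1 CPM in pyruvate replicates 1, 2 and 3. The groups did not overlap, and the lowest library was control replicate 2 (log2 fold change 0.75, SE 0.17, adjusted p = 0.134). Without control replicate 2, Id1 rose in pyruvate medium (log2 fold change 0.57, adjusted p = 0.0288), and it did so by DESeq2 with all libraries (adjusted p = 0.00872). Id1 was called in 4 of the 14 alternative fits.

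**Figure D3:**
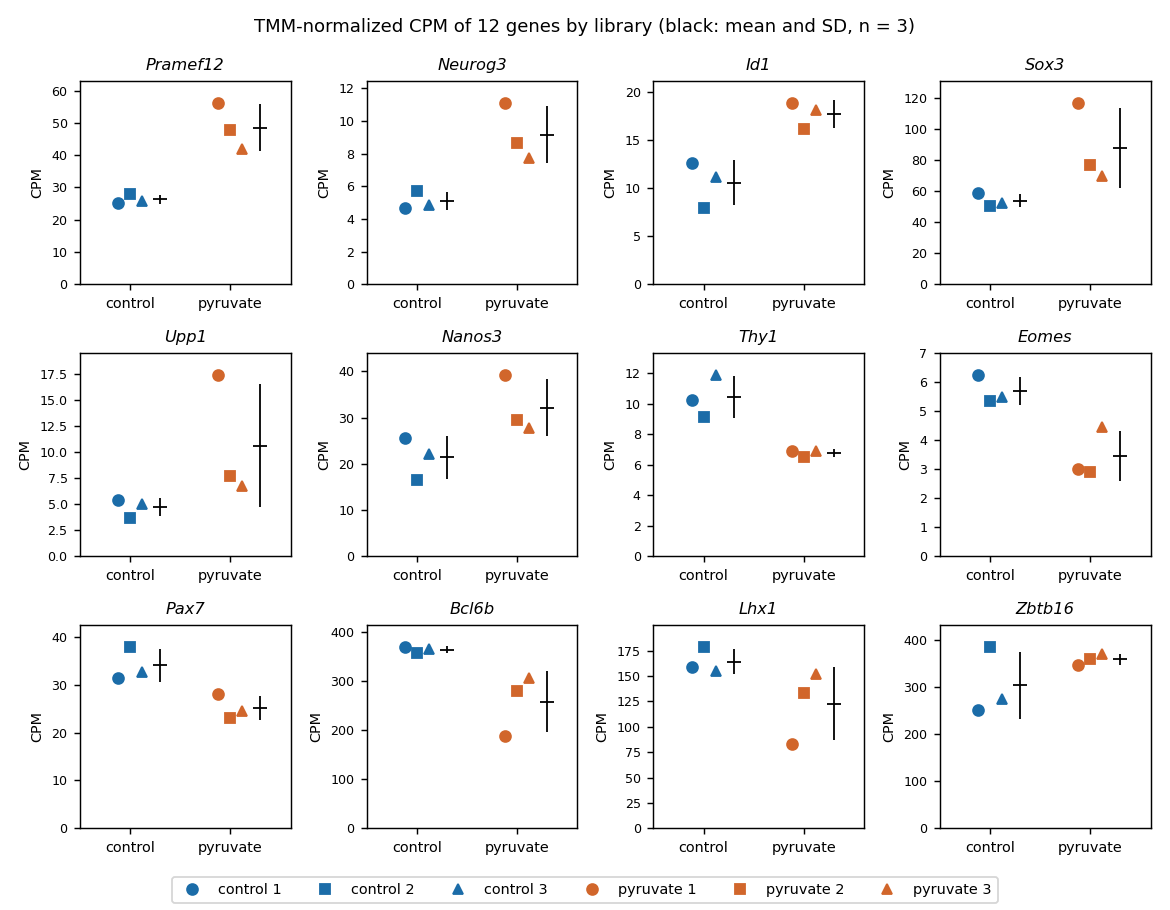
TMM-normalized CPM of 12 genes in each library, control in blue and pyruvate in orange, with the replicate shown by the marker shape and the mean and SD (n = 3) in black. The groups do not overlap for 11 of the 12 genes, the exception being Zbtb16, whose control replicate 2 (385 CPM) is the highest library. The genes were picked by hand, mostly from the members of lowest p, so this count follows from the choice. Of all 40 tested members 7 lay higher and 10 lower without overlap, against 11.9% and 10.6% of all tested genes.

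Among the 8 transcription and chromatin factors, 3 had log2 fold changes above 0 and 5 below. Zbtb16 (ENSMUSG00000066687, chromosome 9, 48654297 to 48836222), the zinc finger repressor PLZF needed for stem cell upkeep, stood at 252, 385 and 276 CPM in control replicates 1, 2 and 3 and at 347, 361 and 370.1 CPM in pyruvate replicates 1, 2 and 3. Control replicate 2 was the highest library and the other controls the lowest, so that the groups overlapped (log2 fold change 0.24, SE 0.15, adjusted p = 0.495). Zbtb16 rose in pyruvate medium without control replicate 2 (log2 fold change 0.45, adjusted p = 0.00813), and its log2 fold change was 0.12 without control replicate 1. Sox3 (ENSMUSG00000045179, chromosome X, 60891366 to 60893430), a factor of progenitors, stood at 58.5, 50.3 and 52.5 CPM in control replicates 1, 2 and 3 and at 117, 76.4 and 69.7 CPM in pyruvate replicates 1, 2 and 3. Every pyruvate library lay above every control, and replicate 1 lay far above the others (log2 fold change 0.71, SE 0.18, adjusted p = 0.17). DESeq2 called Sox3 higher (adjusted p = 0.0175). Without pyruvate replicate 1 the log2 fold change was 0.45.

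Pax7 (ENSMUSG00000028736, chromosome 4, 139737062 to 139833528), a paired-box factor of rare stem cells in the testis, stood at 31.4, 37.8 and 32.7 CPM in the controls and at 28.0, 23.1 and 24.5 CPM in pyruvate medium, with all controls above all pyruvate libraries (log2 fold change -0.43, SE 0.11, adjusted p = 0.167). Sall4 (ENSMUSG00000027547, chromosome 2, 168748332 to 168767943), a zinc finger factor of undifferentiated cells, stood at 248, 245 and 234 CPM in the controls and at 234, 203 and 208 CPM in pyruvate medium. Pyruvate replicate 1 was just above control replicate 3, so the groups overlapped (log2 fold change -0.17, SE 0.079, adjusted p = 0.367). Foxo1 (ENSMUSG00000044167, chromosome 3, 52268336 to 52353221), the forkhead factor restrained by AKT, stood at 174, 225 and 173 CPM in the controls and at 187, 188 and 183 CPM in pyruvate medium, with control replicate 2 the highest library and the other libraries close together (log2 fold change -0.039, SE 0.11, adjusted p = 0.894). Foxc2, a forkhead factor of quiescent stem cells, stood at 62.3 ± 2.55 and 72.7 ± 11.9 CPM (SD, n = 3 per group), and Utf1, a chromatin-bound protein, at 24.7 ± 3.89 and 21.6 ± 2.23 CPM (SD, n = 3 per group). Taf4b, a TFIID subunit needed for long-term spermatogenesis, stood at 128 ± 20.9 and 118 ± 13.6 CPM (SD, n = 3 per group). Adjusted p was 0.45 for Foxc2, 0.565 for Utf1 and 0.738 for Taf4b. Foxc2 moved from a log2 fold change of 0.22 to 0.36 without pyruvate replicate 1, and Utf1 from -0.19 to -0.32 without control replicate 2.

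Of the RNA-binding regulators, both Nanos genes stood higher in every pyruvate library than in any control and Lin28a did not. Nanos2 (ENSMUSG00000051965, chromosome 7, 18987400 to 18988962), which keeps stem cells from differentiating, stood at 7.08, 5.70 and 6.88 CPM in the controls and at 11.6, 8.42 and 8.00 CPM in pyruvate medium (log2 fold change 0.52, SE 0.17, adjusted p = 0.239). Nanos3 (ENSMUSG00000056155, chromosome 8, 84173731 to 84185217), whose promoter with 2 E-boxes is shown above, stood at 25.5, 16.5 and 22.2 CPM in the controls and at 39.2, 29.6 and 27.7 CPM in pyruvate medium (log2 fold change 0.59, SE 0.18, adjusted p = 0.218). For both genes pyruvate replicate 1 was the highest and control replicate 2 the lowest library. Leaving out pyruvate replicate 1 gave a log2 fold change of 0.33 for Nanos2. Lin28a (ENSMUSG00000050966, chromosome 4, 134003330 to 134018841), which blocks maturation of let-7 microRNAs, stood at 302, 314 and 300.2 CPM in the controls and at 330.2, 295 and 282 CPM in pyruvate medium with overlapping groups (log2 fold change -0.015, SE 0.08, adjusted p = 0.946).

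The progenitor-linked genes held some of the widest differences. Neurog3 (ENSMUSG00000044312, chromosome 10, 62133090 to 62134763), a basic helix-loop-helix factor of progenitors, stood at 4.69, 5.73 and 4.87 CPM in control replicates 1, 2 and 3 and at 11.1, 8.65 and 7.73 CPM in pyruvate replicates 1, 2 and 3. Each pyruvate library lay above each control, and no control exceeded 6 CPM (log2 fold change 0.84, SE 0.17, adjusted p = 0.116). Without control replicate 2 Neurog3 rose (log2 fold change 0.94, adjusted p = 0.0228), as it did by DESeq2 with all libraries (adjusted p = 0.00557). Neurog3 was called in 5 of the 14 alternative fits. Upp1 (ENSMUSG00000020407, chromosome 11, 9118103 to 9136170), uridine phosphorylase, stood at 5.38, 3.73 and 5.06 CPM in the controls and at 17.4, 7.72 and 6.77 CPM in pyruvate medium. Pyruvate replicate 1 stood far above the rest, and the remaining pyruvate libraries still lay above the controls (log2 fold change 1.18, SE 0.36, adjusted p = 0.21). Its log2 fold change was 0.63 without pyruvate replicate 1. DESeq2 with all libraries called it higher (adjusted p = 0.0255). Rarg, the retinoic acid receptor of undifferentiated cells, stood at 90.5, 75.2 and 85.3 CPM in the controls and at 102, 76.8 and 75.2 CPM in pyruvate medium (log2 fold change 0.018, SE 0.13, adjusted p = 0.962).

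A list of 22 genes drawn up for differentiating spermatogonia was set beside these values. It also holds Uchl1 and the cyclins Ccnd1 and Ccnd2, and whether its genes are confined to that stage was not tested. Of the list 21 were tested and 0 passed, with a median log2 fold change of -0.025. At an unadjusted p under 0.05 there were 2 above 0 (9.52%, against 7.94% of all tested genes) and 3 below (14.3%, against 6.44%). In the edgeR fit without control replicate 2, 1 gene of the list passed higher (4.76%, against 2.33%) and 3 lower (14.3%, against 1.82%). Of the 20 genes of the list that DESeq2 tested, it called 1 higher and 2 lower, where it called 1.22% and 0.972% of all genes. Kit, the stem cell factor receptor, was picked with its values in view and stood at 37.9, 47.0 and 36.1 CPM in the controls and at 45.5, 21.8 and 21.8 CPM in pyruvate medium. Stra8, a gene induced by retinoic acid and picked likewise, stood at 144, 116 and 144 CPM in the controls and at 161, 86.4 and 76.4 CPM in pyruvate medium. Both were higher in pyruvate replicate 1 than in the other pyruvate libraries, as were Neurog3, Upp1 and Sox3. In pyruvate replicates 2 and 3 Kit and Stra8 lay below all controls, and Neurog3, Upp1 and Sox3 above all controls. Kit and Stra8, being picked, do not speak for the list, in which 9 tested genes had log2 fold changes above 0 and 12 below. For the 21 tested genes the median log2 deviation from the gene mean was 0.092, -0.052 and -0.079 in pyruvate replicates 1, 2 and 3. It was 0.072, -0.0072 and 0.020 in control replicates 1, 2 and 3. The part of differentiating cells in the members' values was not tested. The list's lowest p belonged to Ccnd1, a cyclin of G1, at log2 fold change -0.58 (adjusted p = 0.0592), Rhox13 at -0.49 (0.154), Lhx8 at 1.76 (0.155) and Sohlh2 at -0.25 (0.163). Exons of Ccnd1 overlap a gene on the opposite strand. Summed levels of the list were 3527 to 3736 CPM in control and 3206 to 3403 CPM in pyruvate medium.

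Of the 8 tested surface proteins 7 had log2 fold changes below 0 (5 with library totals as the scaling), and in 5 every pyruvate library lay below every control (62.5%, against 10.6% of all tested genes). Pyruvate replicate 1 stood apart in this group, with a median deviation from the gene mean of -0.21 on the log2 scale beside -0.033 and -0.030 in the other pyruvate libraries. At an unadjusted p under 0.05, 4 of the 8 surface genes lay below 0 with all libraries, against 6.44% of all tested genes. Without pyruvate replicate 1 it was 1 of the 8, against 3.85% of all tested genes, so the share over all genes was lower there too. Thy1 (ENSMUSG00000032011, chromosome 9, 44043384 to 44048579), a glycolipid-anchored protein used to enrich stem cells, stood at 10.2, 9.15 and 11.9 CPM in control replicates 1, 2 and 3 and at 6.89, 6.48 and 6.91 CPM in pyruvate replicates 1, 2 and 3. The pyruvate libraries lay within 1 CPM of each other and under all controls (log2 fold change -0.62, SE 0.13, adjusted p = 0.124). Without control replicate 2 Thy1 fell (log2 fold change -0.71, adjusted p = 0.0189), and DESeq2 called it lower with all libraries (adjusted p = 0.0207). Thy1 was called in 4 of the 14 alternative fits. Thy1 is also a fibroblast gene. The 18 feeder and fibroblast markers summed to 645 to 721 CPM in control and 698 to 740 CPM in pyruvate medium, with Lum and Dcn between 0.12 and 0.68 CPM. In that list Sparc, Col5a1, Col1a1 and Postn had the lowest p, with log2 fold changes of -0.41, 0.38, 0.36 and -0.61, and 0 of 16 tested genes passed. Col5a1 and Acta2 of that list passed without control replicate 2, both higher. The ranges of the summed level overlapped between media, with the pyruvate range the higher. Of the 16 tested genes 2 lay higher without overlap (12.5%, against 11.9% of all tested genes) and 3 lower (18.8%, against 10.6%). The part of feeder and fibroblast cells in the value of Thy1 was not tested.

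Itgb1 (ENSMUSG00000025809, chromosome 8, 128685654 to 128733200), the integrin beta-1 chain, stood at 307, 365 and 312 CPM in the controls and at 253, 286 and 293 CPM in pyruvate medium. Control replicate 2 was the highest library and no pyruvate library reached the controls (log2 fold change -0.24, SE 0.095, adjusted p = 0.302). Its log2 fold change was -0.16 without control replicate 2 and -0.10 without that library and pyruvate replicate 1. Cd9 (ENSMUSG00000030342, chromosome 6, 125460266 to 125494791) stood at 222, 207 and 207 CPM in the controls and at 172, 189 and 195 CPM in pyruvate medium, again without overlap (log2 fold change -0.20, SE 0.077, adjusted p = 0.305). Gpr125 (ENSMUSG00000029090, chromosome 5, 49959956 to 50059006), an adhesion G protein-coupled receptor, stood at 162, 182 and 163 CPM in the controls and at 136, 154 and 153 CPM in pyruvate medium, in the same order (log2 fold change -0.20, SE 0.085, adjusted p = 0.336). Epcam stood at 202, 190.0 and 203 CPM in the controls and at 186, 188 and 180.2 CPM in pyruvate medium, a difference of a few percent without overlap (log2 fold change -0.10, SE 0.068, adjusted p = 0.529). Mcam stood at 803, 724 and 804 CPM in the controls and at 636, 775 and 888 CPM in pyruvate medium, with the pyruvate libraries on both sides of the controls (log2 fold change -0.02, SE 0.12, adjusted p = 0.952). Itga6, the integrin alpha-6 chain that pairs with Itgb1, stood at 241 ± 55.9 and 241 ± 21.0 CPM (SD, n = 3 per group), and its controls were the more scattered group. Cdh1, E-cadherin, stood at 9.27 ± 1.31 and 10.9 ± 0.70 CPM (SD, n = 3 per group). Adjusted p was 0.997 for Itga6 and 0.456 for Cdh1.

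Pramef12 (ENSMUSG00000028591, chromosome 4, 144391674 to 144408464), a member of the PRAME family that is required for spermatogenesis, was the member with the lowest p. It stood at 25.2, 27.8 and 25.9 CPM in control replicates 1, 2 and 3 and at 56.2, 47.7 and 41.8 CPM in pyruvate replicates 1, 2 and 3. Controls lay within 3 CPM of each other, and each pyruvate library lay above all of them. The means were 26.3 ± 1.33 and 48.6 ± 7.26 CPM (SD, n = 3 per group), a 1.84-fold difference as fitted (log2 fold change 0.88, SE 0.12, adjusted p = 0.0613). Pramef12 rose without control replicate 2 (adjusted p = 0.00482), with library totals as the scaling (0.0471), with no filter on low counts (0.00596) and by DESeq2 (6.16e-07). Of the 14 alternative fits, 6 called it. It did not pass with limma-voom (0.0676), a filter of 5 CPM in 3 libraries (0.0746) or DESeq2 size factors (0.0616). Nor did it with any other single library left out (adjusted p of 0.128 to 0.352). It belongs to a multigene family, and reads shared with related copies could be split or dropped by the counting. Tcl1, a co-activator of AKT, Brd7, a bromodomain protein, and Ccdc6, a coiled-coil protein, stood at log2 fold changes of 0.0093, 0.0042 and 0.033, with adjusted p of 0.976, 0.983 and 0.913.

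**Figure D4:**
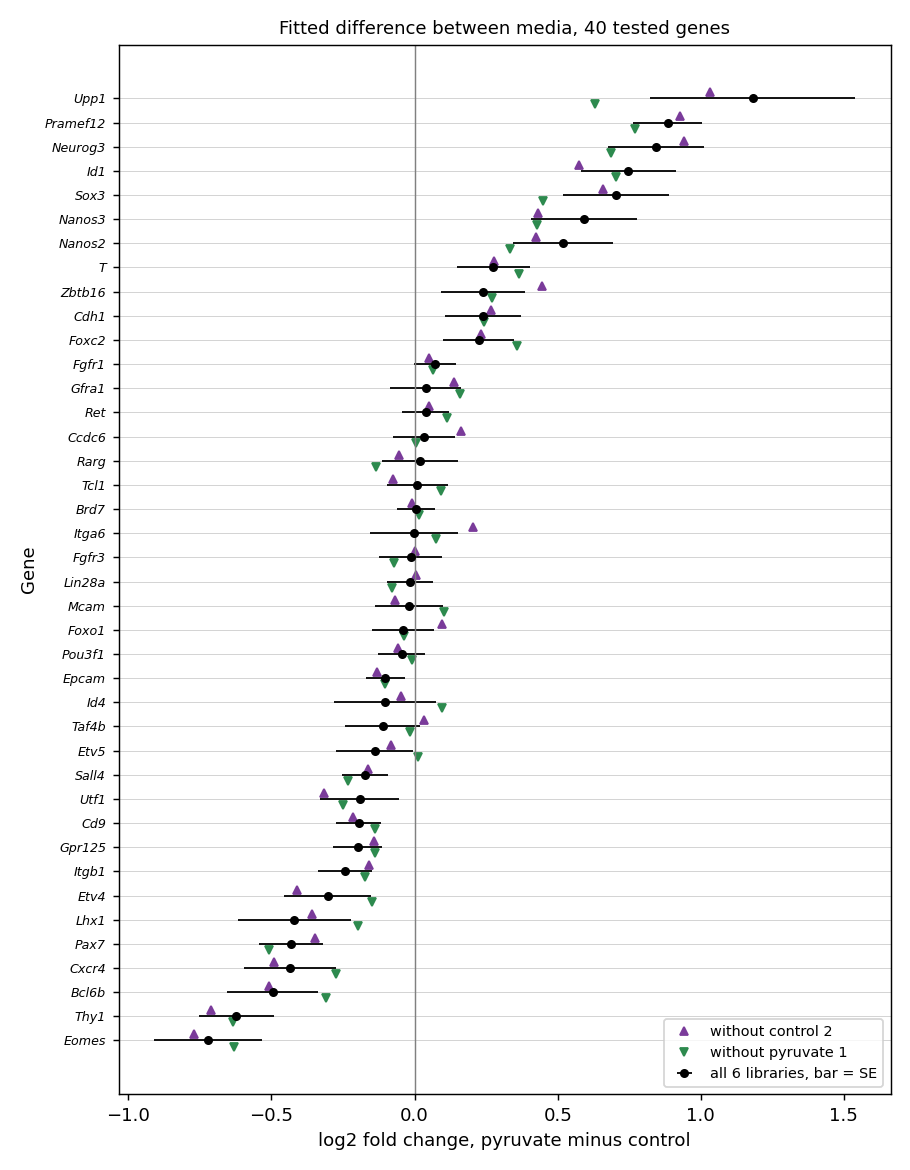
Fitted log2 fold change (pyruvate minus control) of the 40 tested genes with all 6 libraries (black, bar = SE), without control replicate 2 (purple) and without pyruvate replicate 1 (green). Upp1 (1.18) and Pramef12 (0.88) lie at the upper end and Eomes (-0.72) and Thy1 (-0.62) at the lower end with all libraries.

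The number of members called differed with the libraries and the tool used. Without control replicate 2, 4 members rose, Id1, Neurog3, Pramef12 and Zbtb16 (4 of 40 members, where 2.33% of all tested genes rose), and 1 fell, Thy1 (2.5%, against 1.82%). Without pyruvate replicate 1 alone, 0 were called by edgeR, with 8 above 0 (20.0%, against 5.68% of all tested genes) and 5 below 0 (12.5%, against 3.85%) at an unadjusted p under 0.05. With DESeq2 and all libraries 5 members rose, Id1, Neurog3, Pramef12, Sox3 and Upp1 (12.5%, against 1.22%), and 1 fell, Thy1 (2.5%, against 0.972%).

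Leaving out control replicate 2 and pyruvate replicate 1 together, a choice made after seeing the data, left 2 libraries per group and 12 members higher (30.0%, against 12.5% of all tested genes) and 11 lower (27.5%, against 11.2%). The libraries left were the closest pair of each group, with a chi-square per gene of 3.07 and 4.32 where the other pairs ran from 12.7 to 46.8. The choice itself made the spread within groups small, so adjusted p from this fit cannot be taken at face value. In that fit Gfra1 was called higher (log2 fold change 0.25, adjusted p = 2.24e-04), where its adjusted p was 0.906 with all libraries. So were Zbtb16, Foxc2, Itga6, Ccdc6, T, Id1, Nanos3, Neurog3, Pramef12, Sox3 and Upp1. Bcl6b was called lower in that fit (log2 fold change -0.33, adjusted p = 3.12e-05), as were Etv4, Eomes, Cxcr4, Pax7, Utf1, Sall4, Rarg, Thy1, Cd9 and Epcam. Ret, Etv5, Lhx1, Id4, Foxo1, Lin28a, Nanos2 and Mcam did not pass there, with adjusted p of 0.0612 (Lhx1) to 0.606 (Mcam).

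The wider GDNF and FGF signalling pathway was read from a list of 53 genes, from ligand and adaptors to kinases and feedback inhibitors, of which 50 were tested. With edgeR 0 passed, and 0 passed by DESeq2 or limma-voom. At an unadjusted p under 0.05 there were 1 gene above 0 (2.0%, against 7.94% of all tested genes) and 2 below (4.0%, against 6.44%), the median log2 fold change was -0.10, and 19 genes lay above 0 and 31 below. Mycn, a MYC family factor downstream of the pathway, stood at 162, 166 and 159.6 CPM in the controls and at 136, 141 and 136 CPM in pyruvate medium, all pyruvate libraries lying below all controls (log2 fold change -0.24, SE 0.067, adjusted p = 0.182). Spred2, an inhibitor of RAS signalling, stood at 117, 166 and 122 CPM in the controls and at 86.0, 108 and 109.5 CPM in pyruvate medium (log2 fold change -0.41, SE 0.15, adjusted p = 0.276). Control replicate 2 was its highest library, and without it the log2 fold change was -0.24. Gfra2, a co-receptor for the GDNF relative neurturin, stood at log2 fold change 0.34 (adjusted p = 0.318) and the adaptor Gab2 at 0.25 (0.348). Without control replicate 2 the median of the list was 0.0076, with 25 genes above 0 and 25 below.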

How the data were processed

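RNA of 6 libraries was made with TRIzol, a column kit and a stranded mRNA kit, per the labels' protocols. The authors deposited unnormalized gene counts in whole numbers. STAR 2.7.11a, HTSeq 2.0.5, cutadapt 4.6, bcl2fastq 2.20 and the build mm10 are listed, per the submitters' processing notes. Annotation release and strand setting were not given in the sources used here. A further 3 columns matched no sample used here. No line lacked a gene identifier (0).

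Counts were fitted in R 4.3.3 with edgeR 4.0.16: filterByExpr with a minimum count of 10, TMM factors, robust quasi-likelihood test, Benjamini-Hochberg adjustment at 0.05 over 14912 genes, no covariate. The SE was taken as the size of the log2 fold change over the root of F. Log2 CPM for principal components used a prior count of 2. The 4 promoters shown were picked by hand from the RefSeq table. Gene positions and exon lengths are from GENCODE M21 on GRCm38, in which 32235 identifiers matched. No libraries of a group agreed within counting noise, so none were merged; this does not show that they are separate cultures. The labels name no separate cultures, so a p here reflects the spread among libraries, possibly technical. The steps were tested on simulated counts.

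Members and lists were chosen with earlier results of these data known. Values in every library are given for the 14 members of lowest p, 12 members fixed by name, the 5 highest per length, and others of interest. Of the other lists the 4 genes of lowest p are named. Alternatives were DESeq2 size factors, library totals, no filter, 5 CPM in 3 libraries, DESeq2 1.42.0, limma-voom (limma 3.58.1), the replicate block, each library left out and, added after seeing the data, control replicate 2 and pyruvate replicate 1 left out together.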

Additional observations from a re-analysis of the deposited data

How the results depend on the processing

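The count of members called, 0 in the edgeR fit, was 0 to 5 when single libraries were left out, 1 with library totals, 2 with no filter, 6 with DESeq2 and 23 without control replicate 2 and pyruvate replicate 1. It was also 0 with DESeq2 size factors, limma-voom and a filter of 5 CPM in 3 libraries. The member called with library totals was higher (2.5%, against 0.0536% of all tested genes). The 2 called with no filter were higher too (4.76%, against 0.232%). The count over all genes, 8, was 0 to 625 with single libraries left out, 14 with library totals (8 higher and 6 lower, against 3 and 5), 83 with no filter, 286 with DESeq2 and 3520 without both libraries. The signalling list had 9 calls without both libraries and 0 otherwise. Those 9 were 10.2% of the list higher and 8.16% lower, against 12.5% and 11.2% of all tested genes in that fit. The members' median log2 fold change was 0.038 without both libraries, 0.017 with library totals and -0.033 to 0.0088 with single libraries left out. Fitting the replicate number as a replicate block gave 7 members and 265 genes. Higher were Id1, Nanos3, Neurog3, Pramef12, Sox3 and Upp1 (15.0%, against 1.01% of all tested genes). Thy1 was lower (2.5%, against 0.764%). Same-numbered libraries correlated in their deviations by 0.31, 0.31 and -0.073, and control replicate 3 correlated best with pyruvate replicate 1, so the numbers were not taken as pairs. The cause of these shifts was not tested; leaving out 2 libraries removes the most distant library of each group by construction. Of 350 values of 25 named members under the alternatives, 20 changed sign, all in 7 members, to values within 0.14 of 0 on the log2 scale. Over single libraries or both left out, the log2 fold change ran up to 0.25 for Gfra1 and 0.11 for Ret, and down to -0.25 for Etv5, -0.23 for Id4, -0.10 for Foxo1, -0.078 for Lin28a and -0.14 for Mcam. The sign changes were Gfra1 without control replicate 1 or 3 (-0.0038 and -0.0049) and without pyruvate replicate 2 or 3 (-0.018 and -0.026); Ret without pyruvate replicate 3 (-0.016); Etv5 and Id4 without pyruvate replicate 1 (0.012 and 0.094) and without both libraries (0.057 and 0.14); Foxo1 without control replicate 2 (0.097) and without both (0.088). Lin28a changed with library totals (0.016) and without control replicate 2 or pyruvate replicate 2 or 3 (0.0056, 0.0018 and 0.033). Mcam changed with library totals (0.0088), without control replicate 1 or 3 (0.0057 and 0.0090), without pyruvate replicate 1 (0.10) and without both (0.043). Id2 and Tspan8, below the floor of 3 counts in some libraries, allow no statement at this depth.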
